A study of Homo sapiens with 32 samples.

Results

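The 8 clones of human 293T cells compared here had all received short hairpin RNAs against ERH, and they differed in whether DGCR8 still carried the segment named as its ERH binding site. The labelled genotype of clones 30, 34, 42 and 43 was DGCR8 delta103-126Q, called the deletion clones below. Clones 52, 55, 57 and 67 were labelled wild-type. The samples were chosen by the shERH label. Each clone gave 1 library with the vector shERH_1 and 1 with shERH_2. Thus 16 of the 32 samples in the series entered the comparison, 8 per genotype. The other 16 samples, the same clones with control shRNA_1 and control shRNA_2, serve only as the values with ERH not targeted. All cells were transiently transfected, kept under puromycin at 2 µg/ml and sorted on day 5 for the marker on the vector. Each replicate is 1 clonal line, so a difference between genotypes contains whatever else differs between clones. ERH and DGCR8 mRNA were not analysed here, so neither the knockdown nor the edit was checked.

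The Microprocessor is the nuclear complex of the nuclease DROSHA and its RNA-binding partner DGCR8, and it cuts miRNA hairpins out of long primary transcripts. DICER then trims the hairpin, and 1 strand guides Argonaute to target mRNAs through its seed, bases 2 to 8. ERH is a small nuclear protein that binds DGCR8. It is best known for helping the Microprocessor with poor hairpins that share a transcript with a good one, such as mir-15a beside mir-16 or mir-451a beside mir-144. Some miRNAs, the mirtrons and capped hairpins, reach DICER without the Microprocessor.

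In the longest DGCR8 coding transcript of GENCODE 29, the codons that the genotype label names as deleted fall within exon 2. They number 24 and span chr22:20086270-20086341 of GRCh38, plus strand. The same DGCR8 transcript holds 2 miRNA hairpins in exonic sequence. MIR1306 (chr22:20086058-20086142) ends 127 bases before the deleted codons, and MIR3618 (chr22:20085746-20085833) ends 436 bases before them. GRCh38 is not stated to be the build behind the counts. The mature sequences of the miRNAs that lead the comparison, from RefSeq (GRCh38.p14), are written 5′ to 3′ with the seed in capitals. The table counted whole hairpins, so either arm may have supplied the reads. The first 6 belong to the hairpins lower in deletion clones and to the neighbour in DGCR8, and the rest to hairpins higher there.
hsa-miR-187-3p: uCGUGUCUuguguugcagccgg
hsa-miR-1306-5p: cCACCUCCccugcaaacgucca
hsa-miR-1306-3p: aCGUUGGCucugguggug
hsa-miR-181b-5p: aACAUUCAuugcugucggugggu
hsa-miR-210-3p: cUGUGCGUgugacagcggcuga
hsa-miR-3618: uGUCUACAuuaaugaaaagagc
hsa-miR-624-5p: uAGUACCAguaccuuguguuca
hsa-miR-616-5p: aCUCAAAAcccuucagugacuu
hsa-miR-581: uCUUGUGUucucuagaucagu
hsa-miR-3145-5p: aACUCCAAacacucaaaacuca
hsa-miR-548an: aAAAGGCAuugugguuuuug
Sequences were found for 15 of the 18 leading miRNAs, and no seed is shared between any pair of them. The mir-4803 and mir-548i hairpins, both among the leading miRNAs, are named only.

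The 16 libraries held 1318923 to 6222790 miRNA counts (median 2131312), and the 8 sums of both shERH libraries per clone held 3560747 to 8687609. Levels are given as CPM, counts per 1000000 miRNA counts after TMM scaling. The 6 kidney and HOX-derived marker miRNAs summed to between 34138 and 55848 CPM in deletion clones and between 45946 and 70424 in wild-type clones. The 8 markers of pluripotent cells summed to at most 1.52 CPM in any clone, with mir-302c, mir-367 and mir-371a at 0 in all 8. The 6 epithelial markers summed to between 102 and 214 CPM. None of them was at 0, and 4 of the 6 were under 10 CPM in each genotype. Markers of other cell types were present as well. The 4 neuron markers summed to between 10334 and 13958 CPM in deletion clones and between 11667 and 16933 in wild-type clones. In the same order, the endothelial marker had 2384 to 4495 and 3015 to 6184 CPM, and the 6 blood cell markers summed to 174 to 1147 and 119 to 442 CPM. Of the 4 neuron markers, 1 was under 10 CPM in each genotype. Of the 6 blood cell markers, 3 were under 10 CPM in deletion clones and 4 in wild-type clones. Clone 57 lay farthest from the other wild-type clones: over 323 miRNAs its root mean square log2 difference from their mean was 0.67, against 0.50 to 0.65 for the other 7 clones. In clones 30, 52 and 67 the distance to the mean of the other genotype (0.51, 0.56 and 0.65, a mean of 4 clones) was no larger than that to the other 3 clones of their own (0.55, 0.58 and 0.65).

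No miRNA passed the threshold for a difference between deletion and wild-type clones under shERH. edgeR's quasi-likelihood test called 0 of 569 rows (0.0%) at a Benjamini-Hochberg adjusted p under 0.05, and the lowest adjusted p was 0.0877. The unadjusted p was under 0.05 for 87 rows, 59 higher and 28 lower in deletion clones. Over the same 8 sums DESeq2 called 8 rows, 5 higher and 3 lower. A limma voom fit over the 16 libraries, with the clone as a replicate block for its 2 libraries, called 9 rows, 6 higher and 3 lower. The 9 were mir-616, mir-624, mir-3145, mir-4803, mir-942 and mir-1304, higher, and mir-181b, mir-187 and mir-1306, lower. So the named differences below failed the main test, and several of them passed in another fit of the same clones.

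The values of the 4 deletion clones and the 4 wild-type clones did not overlap for 49 of the 569 rows with deletion clones higher (8.61%) and for 11 rows with deletion clones lower (1.93%). Of these rows, 36 higher and 9 lower ones averaged at least 10 CPM. From them, 12 higher and 6 lower miRNAs were named by size among those with an unadjusted p under 0.05. They were thus chosen by the values given here.

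**Figure D1:**
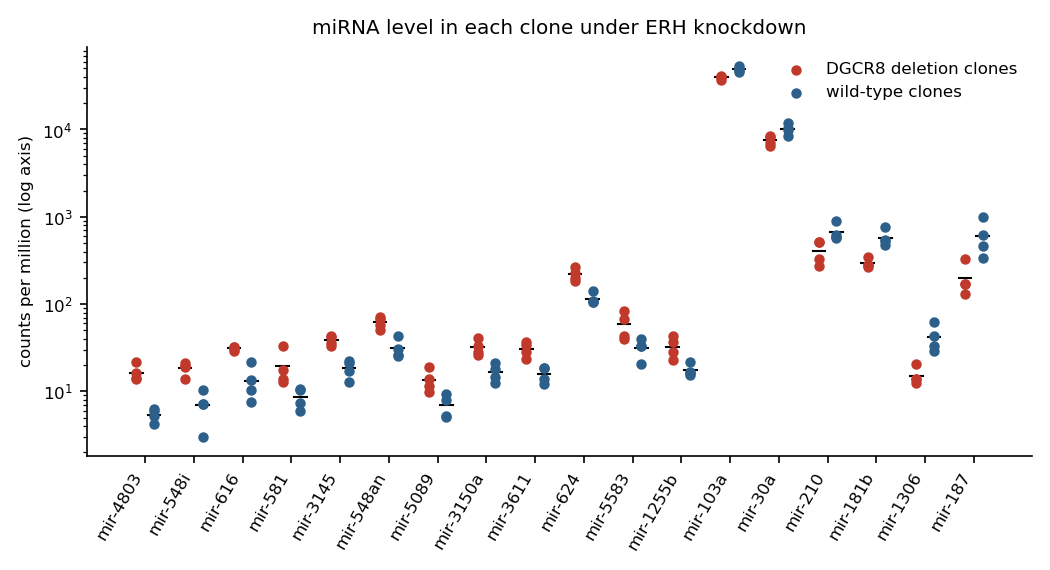
Level of the 18 named miRNAs in each clone under shERH, in TMM-scaled CPM on a log axis. Each point is 1 clone (both shERH libraries summed) and each black bar the mean of 4 clones; the red and blue points of a miRNA do not overlap because the miRNAs were chosen so, and the levels run from about 10 CPM on average to 39606 and 49228 for mir-103a.

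Among the miRNAs lower in deletion clones, mir-187 had the largest difference. MIR187, on chromosome 18 (35904818 to 35904926, minus strand), has no annotated host gene on its own strand. Its level was 324, 171, 129 and 168 CPM in deletion clones 30, 34, 42 and 43, and 336, 1005, 626 and 460.4 CPM in wild-type clones 52, 55, 57 and 67. Deletion clone 30 came close to wild-type clone 52, and the wild-type clones spread widely. The means were 198 ± 86.0 and 607 ± 291 CPM (SD, n = 4 each), a log2 fold change of -1.61 ± 0.37 (SE) with an adjusted p of 0.0877 in edgeR. In bulk RNA a lower level per cell and fewer cells with the miRNA cannot be told apart, here and below.

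The mir-1306 row comes from the DGCR8 transcript itself. It had 12.4, 13.7, 20.6 and 13.8 CPM in deletion clones 30, 34, 42 and 43 and 42.5, 33.4, 29.3 and 62.7 CPM in wild-type clones 52, 55, 57 and 67. Every deletion clone was below every wild-type clone. The means of 15.1 ± 3.70 and 42.0 ± 14.9 CPM (SD, n = 4 each) gave a log2 fold change of -1.47 ± 0.32 (SE, edgeR adjusted p = 0.0877). Its neighbour mir-3618 had 24.9, 29.9, 50.1 and 58.8 CPM in deletion clones and 34.5, 32.5, 49.7 and 39.2 CPM in wild-type clones. Here the genotypes overlapped, and the log2 fold change was 0.07 ± 0.32 (SE, edgeR adjusted p = 0.92). With control shRNA, however, the log2 fold change of mir-3618 was -0.77 (edgeR adjusted p = 0.0837).

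The log2 ratio of mir-1306 to mir-3618 needs no scaling between libraries. It was -1, -1.12, -1.28 and -2.09 in the deletion clones and 0.30, 0.04, -0.76 and 0.68 in the wild-type clones. All deletion clones were below all wild-type clones. The difference of -1.44 had an exact two-sided permutation p of 0.0286, the smallest that 4 against 4 can give, and of 0.114 after adjustment over the 4 ratios tested. With shERH_1 alone the difference was -1.20 and with shERH_2 alone -2.08, each with an exact permutation p of 0.0571. Under control shRNA the same ratio differed by -0.74 between the genotypes, and the change between the arms was not tested.

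The mir-181b row is fed by 2 loci, MIR181B1 in an intron of MIR181A1HG on chromosome 1 and MIR181B2 in an intron of MIR181A2HG on chromosome 9. The family is known from lymphocyte development. Deletion clones 30, 34, 42 and 43 had 283, 279.9, 269 and 346 CPM, and wild-type clones 52, 55, 57 and 67 had 474, 544, 535 and 755 CPM. The gap between the genotypes was wider than the spread among deletion clones. Means of 294 ± 34.7 and 577 ± 123 CPM (SD, n = 4 each) gave a log2 fold change of -0.97 ± 0.21 (SE, edgeR adjusted p = 0.0877). The 4 family members were all below 0, or 3 of the 4 with total scaling: mir-181d at -0.72 ± 0.32 (SE), mir-181a at -0.28 ± 0.18 and mir-181c at -0.05 ± 0.37 had overlapping genotypes.

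The other 3 lower miRNAs differed less. The hypoxia-induced mir-210 averaged 406 ± 124 CPM in deletion clones and 669 ± 146 in wild-type clones, a log2 fold change of -0.72 ± 0.25 (SE, edgeR adjusted p = 0.252). The abundant mir-30a averaged 7556 ± 963 and 10177 ± 1431 CPM, a log2 fold change of -0.43 ± 0.17. The mir-103a row averaged 39606 ± 1783 and 49228 ± 3402 CPM, a log2 fold change of -0.31 ± 0.14. Its 2 loci lie in introns of the pantothenate kinase genes PANK2 and PANK3. mir-103a was the most abundant of the 18, and its genotypes were separated by a small step: the highest deletion clone had 41018 CPM and the lowest wild-type clone 45910.

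The 12 higher miRNAs were mostly rare, averaging 10.2 to 167 CPM, with log2 fold changes of 0.89 to 1.60 and edgeR adjusted p-values of 0.0877 to 0.252. The MIR4803 hairpin lies in an intron of MAP1B, which encodes a microtubule-associated protein, at chr5:72169467-72169540. mir-4803 had 14.2, 21.4, 14.0 and 16.2 CPM in deletion clones 30, 34, 42 and 43 and 5.25, 6.21, 4.22 and 6.03 CPM in wild-type clones 52, 55, 57 and 67. The lowest deletion clone exceeded the highest wild-type clone by more than either genotype's SD. Means were 16.4 ± 3.47 and 5.43 ± 0.91 CPM (SD, n = 4 each), and the log2 fold change was 1.60 ± 0.30 (SE, edgeR adjusted p = 0.0877).

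MIR624, in an intron of the striatin gene STRN3 at chr14:31014646-31014742, was the most abundant of the 12. It had 186, 227, 201 and 266 CPM in deletion clones and 108, 106, 139.7 and 106 CPM in wild-type clones, in the same clone order. Wild-type clone 57 stood above the other 3 wild-type clones and below all deletion clones. The log2 fold change was 0.93 ± 0.21 (SE, edgeR adjusted p = 0.0877).

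The mir-616 row, from an intron of the stress-response gene DDIT3 on chromosome 12, was nearly constant in deletion clones at 29.4, 30.8, 31.9 and 32.5 CPM. Wild-type clones had 21.8, 10.4, 7.49 and 13.4 CPM, and the log2 fold change was 1.24 ± 0.34 (SE). For mir-3145, from an intron of NHSL1 on chromosome 6, deletion clones had 41.6, 43.6, 36.1 and 32.9 CPM and wild-type clones 12.8, 17.2, 21.1 and 22.4 CPM. Its log2 fold change was 1.07 ± 0.27 (SE). These intronic hairpins were about 2-fold apart in both cases: 2.36-fold for mir-616 and 2.09-fold for mir-3145.

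The other higher miRNAs were mir-548i (log2 fold change 1.39 ± 0.37, SE), mir-581 (1.15 ± 0.37), mir-548an (0.98 ± 0.26), mir-5089 (0.96 ± 0.34), mir-3150a (0.95 ± 0.28), mir-3611 (0.94 ± 0.28), mir-5583 (0.89 ± 0.31) and mir-1255b (0.89 ± 0.29). Most lie in introns of protein-coding genes: mir-581 in ARL15, mir-548an in CXorf57, mir-5089 in GOSR2, mir-3150a in NDUFAF6, mir-3611 in CUL2 and 1 of 2 mir-1255b loci in DCAF6. The mir-548i row is shared by 4 loci and the mir-5583 row by 2 hairpins on opposite strands of 1 site, so their reads cannot be assigned to a locus. Among the rows left out by size, mir-1304 (701.6 ± 60.7 against 403 ± 55.9 CPM, SD, n = 4 each) and mir-942 (1671 ± 325 against 1039 ± 73.1 CPM) had log2 fold changes of 0.80 and 0.69. They are named because the blocked fit called them, after their values were seen.

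Each shERH vector can be read alone. All 18 named miRNAs had the same sign with shERH_1 and with shERH_2, and the genotypes did not overlap for 14 of them with shERH_1 and for 10 with shERH_2. The miRNAs had been chosen on the sum of both, so these counts describe the libraries and are no independent evidence. mir-187, mir-181b, mir-624 and mir-4803 were without overlap in both. mir-1306 overlapped with shERH_1, where deletion clones reached 26.9 CPM and wild-type clones went down to 25.2 CPM, and was without overlap with shERH_2 (10.6 to 13.6 against 26.0 to 51.9 CPM).

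The largest fold changes of the whole table were not among these. Of 41 rows with a log2 fold change beyond 1 in either direction, the genotypes overlapped for 22, and 25 averaged under 10 CPM. The largest, mir-767 at -3.56, rested on wild-type clone 57, which had 193 CPM while the other wild-type clones had 0.38 to 2.66 CPM. Clone 57 was also the highest clone for mir-891a (38.8 CPM), mir-888 (25.1 CPM) and mir-892a (21.0 CPM). These 4 rows are named because they were among the largest, after their values were seen.

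The same clones with control shRNA show the genotype difference with ERH not targeted. There 139 of 536 rows were called by edgeR (25.9%), 101 higher and 38 lower in deletion clones. That split depended on scaling: with spike-in scaling 134 calls were higher and 0 lower, with total scaling 154 and 4, and with GC offsets 54 and 56. Over the 524 rows tested in both arms, the median absolute log2 fold change was 0.33 under shERH and 0.60 under control shRNA. The SD of the log2 fold changes was 0.52 and 0.84. The median SD between clones of a genotype was alike, 0.40 and 0.42 on the log2 scale, as was the common biological coefficient of variation (0.36 in both). At this like spread between clones, 33 rows lay beyond a log2 fold change of 1 in either direction under shERH and 141 under control shRNA.

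**Figure D2:**
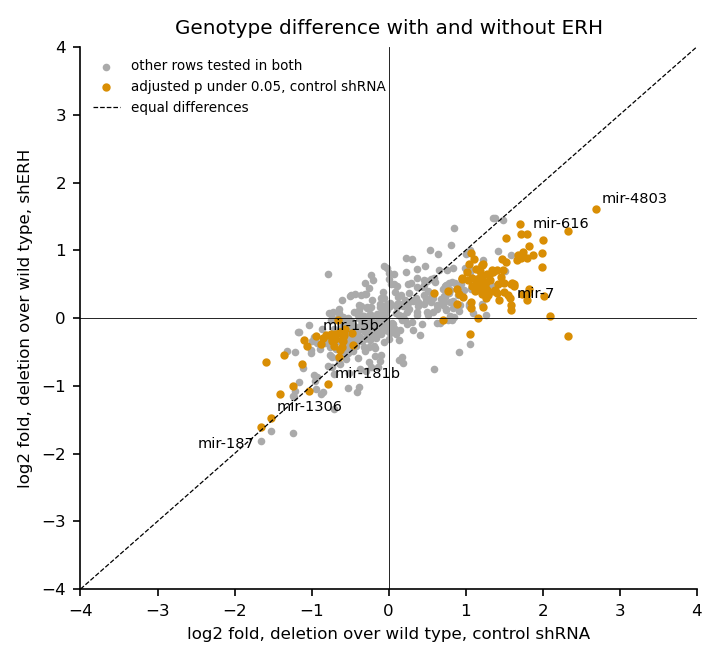
Log2 fold change of deletion over wild-type clones under control shRNA (x axis) and under shERH (y axis) for 524 miRNA rows tested in both; each point is 1 row, orange where the control comparison passed an edgeR adjusted p of 0.05. Most orange points lie between the x axis and the dashed line of equal differences, so the difference had the same sign and a smaller size under shERH, while mir-187 and mir-1306 lie near the line.

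The 2 sets of fold changes went together over the 524 rows (Pearson r = 0.77, Spearman rho = 0.79). They come from different libraries of the same 8 clones, so whatever sets a clone apart enters both. Of 138 rows called under control shRNA and tested under shERH, 135 had the same sign, 136 were smaller in size, and 41 (29.7%) were without overlap in the same direction, beside 8.61% higher and 1.93% lower of all 569 rows. Since these rows were picked for large values under control shRNA, smaller values elsewhere follow in part from that choice. The median of the 101 higher calls was 1.27 under control shRNA and 0.52 under shERH, and that of the 37 lower calls was -0.70 and -0.33.

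Whether the genotype difference itself changed with ERH knockdown was tested by the interaction of genotype and shRNA, over 16 sums with the clone as a block. edgeR called 0 of 623 rows (0.0%), with a lowest adjusted p of 0.0698. The unadjusted p was under 0.05 for 119 rows, 91 with a lower and 28 with a higher log2 fold change under shERH than under control shRNA. DESeq2 called 18 rows, 6 above and 12 below 0. Without wild-type clone 52 edgeR called 33 rows, and with total scaling 34.

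The mir-7 row, fed by several hairpins and known from neurons and pancreatic islets, ranked among the 10 lowest interaction p-values. On 1 scale for all 16 sums, wild-type clones had 3280 ± 685 CPM under control shRNA and 10101 ± 4679 CPM under shERH (SD, n = 4 each). Deletion clones had 10734 ± 2639 and 11806 ± 3324 CPM. The genotypes were apart under control shRNA (log2 fold change 1.59, edgeR adjusted p = 0.0021) and overlapped under shERH (0.20 ± 0.31, SE). The interaction was -1.30 ± 0.32 (SE), with an edgeR adjusted p of 0.0782. Under shERH the highest wild-type clone, 67 with 16439.6 CPM, was as high as the highest deletion clone.

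The mir-15b row differed in the other direction. Wild-type clones had 8947 ± 1594 CPM under control shRNA and 3728 ± 533 under shERH, and deletion clones 5040.5 ± 375 and 3121 ± 177. The genotypes did not overlap in either arm. The log2 fold change was -0.94 under control shRNA (edgeR adjusted p = 0.00796) and -0.26 ± 0.16 (SE) under shERH, with an interaction of 0.66 ± 0.16 (SE, edgeR adjusted p = 0.0782). The genotype means were thus closer under shERH in both miRNAs, at a high level for mir-7 and at a low level for mir-15b. mir-7 and mir-15b were taken up here after their interaction values were seen.

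For mir-187, mir-1306 and mir-181b the genotype difference was of like size in both arms. Their log2 fold changes under control shRNA were -1.66, -1.53 and -0.79, against -1.61, -1.47 and -0.97 under shERH. On the scale of all 16 sums, mir-187 stood at 590.1 ± 312 CPM with control shRNA and 563 ± 276 with shERH in wild-type clones, and at 207 ± 74.4 and 184 ± 75.1 in deletion clones. Wild-type clones had 86.1 ± 25.5 CPM of mir-1306 with control shRNA and 38.7 ± 12.5 with shERH, and deletion clones had 32.2 ± 7.66 and 14.1 ± 3.50. Of these 4 means, that of the deletion clones with shERH was the lowest. The neighbour of mir-1306, mir-3618, had log2 fold changes of -0.77 under control shRNA and 0.07 under shERH. Deletion clones had 24.3 ± 7.02 CPM of mir-3618 with control shRNA and 38.2 ± 15.3 with shERH. Wild-type clones had 38.1 ± 8.97 and 36.1 ± 7.04. The interaction for mir-3618 was 0.78 (edgeR unadjusted p = 0.028, adjusted p = 0.206) and did not pass. The mir-3150a hairpin was the exception among the 12 higher miRNAs: its log2 fold change was 0.95 under shERH and 0.64 under control shRNA (edgeR adjusted p = 0.178), whereas the other 11 were called and larger under control shRNA.

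**Figure D3:**
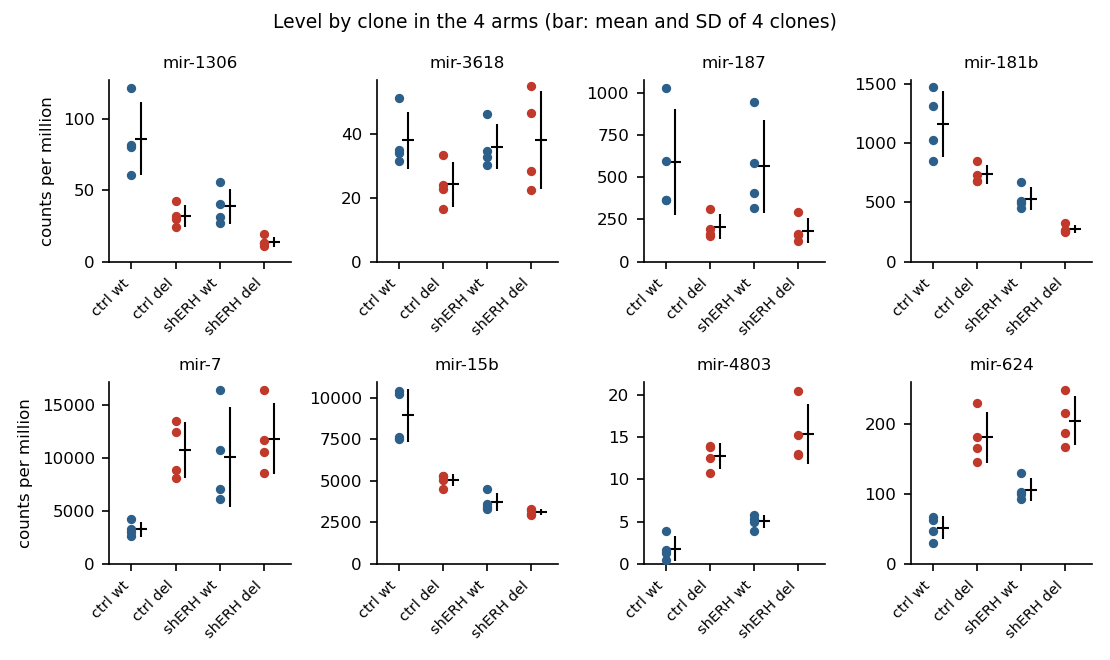
Level of 8 miRNAs by clone in wild-type (blue) and deletion (red) clones under control shRNA and shERH, in CPM on 1 TMM scale for all 16 sums, each axis from 0; points are clones, and the black bar is the mean ± SD of 4 clones. The wild-type mean of mir-7 is 3280 under control shRNA and 10101 under shERH, near both deletion means, while mir-1306, mir-187 and mir-181b keep a step between the genotypes in both arms.

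Families were read by counts and medians, beside the median of all 569 rows of 0.04 (308 above 0, 261 below). This zero depends on scaling: total scaling moved the median of all rows to 0.26 and spike-in scaling to 0.10, so each family is read relative to it.

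The primate mir-548 hairpins derive from a transposable element and many are near-identical copies, so reads may be split between rows, and 11 of the 45 tested rows have several loci. Under shERH 44 of the 45 rows were above 0, with mir-548al at -0.02 the exception, and none passed edgeR's adjusted threshold. The genotypes did not overlap for 11 rows, all higher in deletion clones (24.4%, against 8.61% of all rows). Summed over the 45 rows, deletion clones 30, 34, 42 and 43 had 3482, 3852, 2924 and 4148 CPM and wild-type clones 52, 55, 57 and 67 had 1872, 2959.8, 2745 and 2824 CPM. Deletion clone 42 was inside the wild-type range.

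The mir-548 median log2 fold change was 0.48 under shERH and 1.23 under control shRNA, where 30 of 42 tested rows were called, all higher, beside 25.9% of all rows in either direction. Of 49 mir-548 rows in the interaction fit, 24 had an unadjusted p under 0.05, all below 0, against 91 of all 623 rows. The most abundant members show this: mir-548h had 498 ± 84.5 and 379.7 ± 75.8 CPM under shERH (log2 fold change 0.39 ± 0.22, SE), and mir-548e 269 ± 69.4 and 165 ± 33.8 CPM (0.70 ± 0.24). Under control shRNA their log2 fold changes were 1.12 and 1.40. These hairpins are AU-rich, with a median GC content of 34.9% against 47.9% for all rows. With offsets for hairpin GC content the mir-548 median was 0.19, with 36 rows above 0, and the part of GC content in the difference was not tested.

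The genotype difference varied with hairpin GC content, mainly in the rows of lowest GC content. The rows were ranked by hairpin GC content and cut into 3 sets. Of all 569 rows, 49 were without overlap higher (8.61%) and 11 lower (1.93%). In the 186 rows of lowest GC content the median log2 fold change was 0.25, and 28 rows were without overlap higher and 2 lower. The middle 187 rows had a median of -0.09 with 12 higher and 5 lower, and the 185 rows of highest GC content -0.03 with 8 higher and 4 lower. Under control shRNA the medians of the 3 sets were 0.83, -0.21 and -0.18. All 18 named miRNAs, chosen on the same counts, kept their sign with GC offsets, at 0.50 to 1.32 for the 12 higher and -1.67 to -0.35 for the 6 lower ones.

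Hairpins close to another tested hairpin leaned the other way. Of 102 rows with a same-strand neighbour within 10 kb, 73 were below 0 (71.6%, against 45.9% of all 569 rows), and the median was -0.21. The genotypes were without overlap for 0 higher and 3 lower rows (2.94%), beside 8.61% higher and 1.93% lower of all rows. The share of lower rows without overlap was thus near that of all rows. The 456 rows without such a neighbour had a median of 0.16, with 48 higher (10.5%) and 8 lower (1.75%). With total scaling the clustered median was 0.00 beside 0.26 for all rows. Neighbours were joined into 36 groups by row. A row with several loci can thus join hairpins of different chromosomes, as mir-16 joined mir-15a and mir-15b. Of the 36 groups, 29 had a median below 0 under shERH and 30 under control shRNA.

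**Figure D4:**
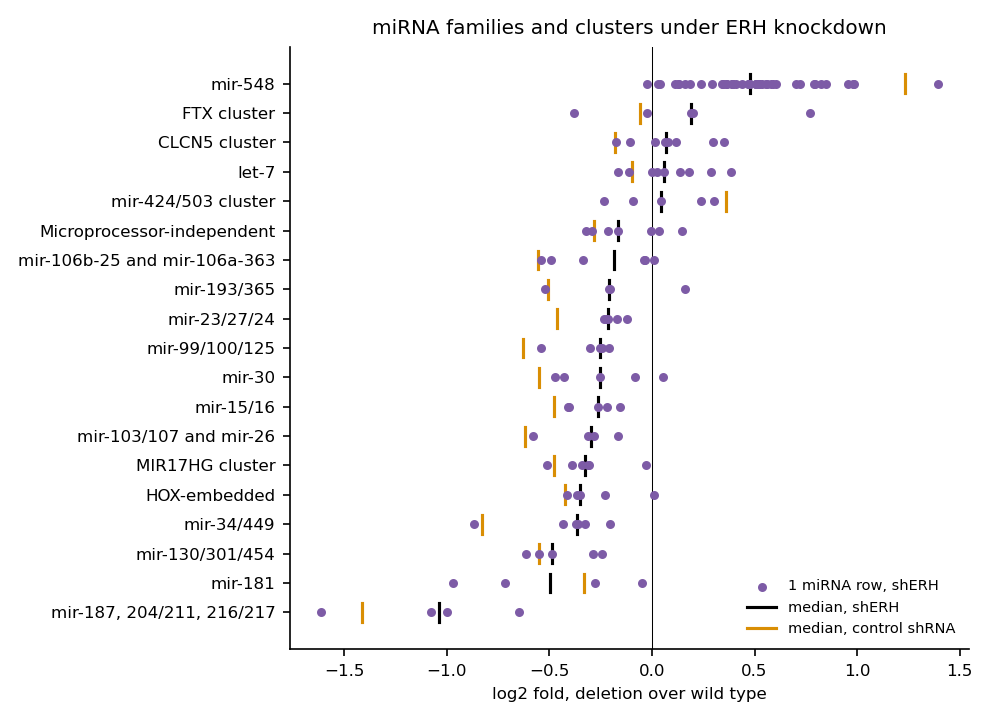
Log2 fold change of deletion over wild-type clones (x axis) for the miRNA families and clusters with at least 4 tested rows (y axis); purple points are single rows under shERH, black ticks their median and orange ticks the median under control shRNA. The mir-548 rows lie almost all above 0 and the list headed by mir-187 lies lowest, with the black tick nearer to 0 than the orange one in all lists but mir-181 and the FTX cluster.

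The lists with mir-15a and mir-451a, the hairpins named above for ERH-assisted cutting, come next. Their other members are not named above as assisted. In the list of mir-15a, mir-15b, mir-16, mir-195 and mir-497, whose members restrain cell-cycle genes, all 5 were below 0 with a median of -0.26. As in all 569 rows, 0 passed. mir-15a had 844.5 ± 214 and 1119.9 ± 127 CPM (log2 fold change -0.41 ± 0.22, SE), and mir-16, which took 15.7 to 18.6% of all miRNA counts, -0.22 ± 0.16. With total scaling 2 of the 5 rows were above 0.

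The mir-16 row is fed by 2 loci, MIR16-1 beside MIR15A on chromosome 13 and MIR16-2 beside MIR15B on chromosome 3. A ratio to mir-16 therefore does not compare hairpins of 1 transcript alone. Relative to mir-16 in the same sum, mir-15a stood at log2 ratios of -7.57, -8.08, -7.19 and -7.68 in deletion clones and -7.25, -7.43, -7.42 and -7.49 in wild-type clones. Deletion clone 42 was above all wild-type clones and the other 3 below them. The difference was -0.23 (exact two-sided permutation p = 0.286, adjusted 0.571). It was -0.08 without deletion clone 34, -0.38 without deletion clone 42 (exact permutation p = 0.0571, the smallest possible there), -0.35 with shERH_1 alone and -0.07 with shERH_2 alone. For mir-15b over mir-16 the log2 ratio differed by -0.05 (exact permutation p = 0.886), with values from -5.76 to -5.49 in deletion clones and from -5.93 to -4.98 in wild-type clones. That difference changed sign without wild-type clone 52 (0.14) and with shERH_1 alone (0.03). Under control shRNA the differences were 0.34 for mir-15a and -0.45 for mir-15b.

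The erythroid mir-451a, cut by Argonaute rather than DICER, and its helper mir-144 were rare, at 5.73 ± 3.58 and 6.24 ± 2.21 CPM for mir-451a. Their log2 fold changes of -0.11 ± 0.45 and -0.17 ± 0.41 (SE) carry errors larger than the values. The Microprocessor-independent list, with mir-320a, mir-484 and mirtrons such as mir-877 and mir-1226, had 7 of 16 members tested. Of these 2 were above and 5 below 0, with a median of -0.16 under shERH and -0.28 under control shRNA. mir-320a was at 0.04 ± 0.20 (SE) and mir-484 at 0.15 ± 0.25, though with total scaling 4 of the 7 rows were above 0.

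Among the other lists, the 4 tested members of the list with mir-187, mir-204, mir-216a and mir-217 were all below 0 under every scaling tried (median -1.04 under shERH, -1.41 under control shRNA). Besides mir-187, mir-204, a regulator in eye and kidney, had 16.3 ± 8.14 and 32.6 ± 9.04 CPM (log2 fold change -1.0 ± 0.37, SE). The pancreatic mir-216a had 14.6 ± 6.41 and 30.8 ± 13 CPM (-1.07 ± 0.43). Both overlapped between genotypes, and neither passed. The list of mir-130a, mir-130b, mir-301a, mir-301b and mir-454 (5 of 5 below 0, median -0.49) also stayed below 0 under every scaling.

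Several other families had all tested rows on 1 side of 0 (no row of the whole table passed the threshold). The growth-promoting MIR17HG cluster had 6 of 6 rows below 0 (median -0.33), from mir-20a at -0.51 ± 0.23 (SE) to mir-92a at -0.03 ± 0.22. The 4 tested rows of mir-103a, mir-107, mir-26a and mir-26b were all below 0 (median -0.30), and so were the 5 of the mir-99 and mir-125 list (-0.25) and the 5 of the mir-23 and mir-27 list (-0.21). The same held for the 6 rows of the p53-linked mir-34 and mir-449a list (-0.37) and the 3 of the sensory mir-183 cluster (-0.33). In the mir-34 list mir-34a was lowest, at -0.87 ± 0.61 (SE): deletion clone 34 had 162 CPM of it, the other deletion clones 1905 to 3921 and the wild-type clones 2796 to 5394. With total scaling 1 row each of the MIR17HG and mir-103a lists and 3 of the 5 rows of the mir-23 list were above 0, and with spike-in scaling 1 row each of the MIR17HG and mir-34 lists was. Under control shRNA the medians were farther from 0, at -0.48 for MIR17HG, -0.62 for the mir-103a list, -0.63 for the mir-99 list and -0.83 for the mir-34 list.

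The let-7 family, which represses growth and stem-cell genes, had 6 rows above and 3 below 0 (median 0.06), and let-7a averaged 14429 ± 1665 CPM in deletion clones and 14179.9 ± 3195 in wild-type clones. The CLCN5 cluster (median 0.07, 6 of 8 above 0), the FTX cluster (0.19, 3 of 5) and the mir-424 cluster (0.04, 3 of 5) were mixed in sign as well. With total scaling all rows of let-7, CLCN5 and mir-424 and 4 of the 5 FTX rows were above 0. With DESeq2 scaling the let-7, CLCN5 and mir-424 medians were just below 0, and with GC offsets the FTX median was -0.12.

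The amount of miRNA relative to the spike-in RNA was compared last. Per clone, the log2 ratio of all miRNA counts to all spike-in counts was 7.31, 7.15, 6.97 and 7.09 in deletion clones and 6.64, 7.34, 7.50 and 7.67 in wild-type clones. Wild-type clone 52 was below all deletion clones and the other 3 wild-type clones above them. The difference of -0.16 had an exact two-sided permutation p of 0.514 (adjusted 0.686). It was -0.38 without wild-type clone 52 (exact permutation p = 0.0571, the smallest possible there) and -0.03 without wild-type clone 67. With shERH_1 alone it was -0.28, and with shERH_2 alone it was 0.04. The first spike-in RNA held 92.6% of the spike-in counts of all 32 libraries, so the ratio rests mostly on it. With the first spike-in left out the difference was -0.14. The spike-in was added to 400 ng of total RNA, so the ratio measures miRNA per total RNA and not per cell.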

How the data were processed

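The authors deposited 1 table of read counts for 1513 miRNA precursor rows and 4 spike-in RNAs, and 0 columns lacked a sample. Per the labels' protocols, QIAseq libraries were made from 100 ng of spiked total RNA. The submitters' processing notes name SAMtools. The aligner, build, annotation and use of molecular identifiers are not given in the sources used here, so counts may include amplification copies. Rows merge arms and loci. The near-equal rows mir-365a and mir-365b are uncertain.

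Counts of both shERH libraries were summed per clone, without equalising their depth. Wild-type clone 57 had 2464819 miRNA counts with shERH_1 and 6222790 with shERH_2, and wild-type clone 67 had 4324633 and 1782947. Libraries of deletion clones under shERH held 1872770 to 2558669. The sums of these wild-type clones thus weigh the vectors unequally. edgeR 4.0.16 (R 4.3.3; filterByExpr, TMM over miRNA rows, quasi-likelihood test, Benjamini-Hochberg adjustment, threshold 0.05) compared 4 deletion with 4 wild-type sums. For the interaction, 16 sums were fitted and the clone was a block. Pairing is by clone between the arms, since every clone has a library for all 4 vectors in the labels, and clones are nested in genotype, so no deletion clone is paired with a wild-type clone. Checked on the counts, libraries of a clone had a consensus correlation of 0.53 under shERH. The clones are separate lines, and nothing else says how they were replicated. Log2 CPM values, such as those behind the spread between clones and the GC offsets, used a prior count of 2. The log2 fold changes are edgeR's own, and the log2 ratios used no such prior count. Ratios were tested by exact two-sided permutation over 70 arrangements (scipy 1.17.1). The genotype fits were tested on simulated data. Alternatives were DESeq2 1.42.0, limma 3.58.1 with the clone as a block, other scalings and filters, GC offsets, single shRNAs, single libraries and leaving out each clone.

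The 12 higher and 6 lower named miRNAs had no overlap between genotypes, at least 10 CPM, an unadjusted p under 0.05 and the largest log2 fold changes. Up to 4 abundant members were added from each of 31 lists. The members, lists and this rule were chosen with earlier results of these data known. GENCODE 29 (GRCh38) gave the hairpins' positions, hosts and GC content and matched 1454 rows, 118 of them with several loci. Among libraries of the same genotype and vector, no pair looked like copies. Other pairs were not compared.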

Additional observations from a re-analysis of the deposited data

Results flagged for a closer look

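For 121 named miRNAs the 4 deletion and the 4 wild-type clones under shERH were each searched for a clone far from the other 3, by Dixon's ratio at its 95% critical value. Of 250 groups examined, ratios included, 10 had such a clone, and chance gives about 1 in 20 groups. Wild-type clone 52 was the distant clone 3 times: lowest for mir-301b (99.6 CPM, others 195 to 199.9) and mir-26b (4898 CPM, others 10913 to 11128), and highest for mir-222 (6287 CPM, others 4152 to 4404). Wild-type clone 57 was highest for mir-624 (139.7 CPM, others 106 to 108) and lowest for mir-320c (80.5 CPM, others 109 to 115). Deletion clone 42 was highest for mir-451a (11.1 CPM, others 3.57 to 4.28) and lowest for mir-548aq (158 CPM, others 204.3 to 215.3). Deletion clone 30 was highest for mir-194 (780.5 CPM, others 371 to 416). Deletion clone 34 was lowest for mir-26a (7807 CPM, others 10242 to 10818), and deletion clone 43 lowest for mir-30c (2087 CPM, others 3089 to 3326).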

How the results depend on the processing

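The count of 0 calls under shERH became 8 with DESeq2, 1 with no filter on low counts, 47 with each library as its own sample (where libraries of 1 clone count as independent), 9 with the replicate block and 3 in 1 fit over all 16 sums; leaving out 1 clone gave 0 to 1, the 1 being mir-891a without deletion clone 43. It stayed 0 with spike-in or total scaling, a mean of at least 100 counts, either shRNA alone and GC offsets. The 139 calls under control shRNA became 76 with at least 100 counts, 35 with control shRNA_2 alone, 221 with each library as its own sample and 83 to 129 without 1 clone, the 83 without deletion clone 34. The interaction count of 0 became 18 with DESeq2, 34 with total scaling, 19 with no filter, 29 with at least 100 counts, 67 with each library as its own sample and 1 (mir-15b) with GC offsets; it was 0 with no replicate block and with spike-in scaling. Without 1 clone it was 0 to 33, with 33 without clone 52 and 2 without clone 67. The difference in the log2 ratio of mir-1306 to mir-3618 was -1.20 with shERH_1 alone and -2.08 with shERH_2 alone (exact permutation p = 0.0571 each, where 0.0286 was possible), and -1.71 to -1.20 without 1 clone (exact permutation p = 0.0571 each, the smallest that 3 against 4 can give); the cause of the changes was not tested. The 18 miRNAs named by size kept their sign in all 338 alternative values, and 34 values of 17 of them passed the threshold. Without the fit that takes each library as its own sample, 17 values of 8 miRNAs passed. The 18 had been chosen for lack of overlap in these same counts, so the kept signs are no independent evidence. Of 1938 values for the miRNAs named from lists, 142 (40 miRNAs) changed sign, none past the threshold. Rows under 10 CPM had a median absolute log2 fold change of 0.44, against 0.25 above 1000 CPM; counting error and differences between clones were not separated in rare rows.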
